A study of Drosophila melanogaster with 3 samples.

Results

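The promoters of 41 *Drosophila melanogaster* genes of the cell cycle and of DNA replication were examined for summits of CG13894, a chromatin protein followed here through a GFP tag. The genes were taken from the origin recognition complex, the MCM helicase with Mcm10, the licensing factors, the sliding clamp and ribonucleotide reductase. Others came from the cyclins, cell cycle kinases, E2F and RB proteins, CDC25 phosphatases, the Cdk inhibitor and the activators of the anaphase-promoting complex (APC/C). They are 41 of 13945 annotated protein-coding genes on 6 chromosome arms. A total of 19 are replication factors, 17 are cyclins, kinases and E2F or RB genes, and 5 are phosphatases, the inhibitor and APC/C activators.

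Chromatin came from whole embryos of 2 to 24 hours, from 1 transgenic line in which CG13894 carries a C-terminal GFP, and was precipitated with an anti-GFP antibody. The 3 biological replicates form 1 group, and no second genotype, treatment or stage was compared. Whole embryos mix all tissues and most stages of embryonic development, so occupancy in a few cells and weak occupancy in many cannot be told apart. Peaks come from 5 lists: 30000 peaks for each replicate, 30000 for the pooled replicates, and a thresholded list of 7434 reproducible peaks, which are the 7434 strongest of the pooled list. A summit is the highest position in a peak. A gene is called bound when a thresholded summit lies within 500 bp of any of its transcription start sites (TSSs). Rank 1 is the strongest peak of a list by the caller's own score, and the score is given as its ratio to the median of the thresholded list. Offsets are counted along the gene, with minus for upstream. The depth of the libraries is unknown, since the lists carry scores and positions but not reads.

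As background, a replication origin is licensed when the origin recognition complex, Cdc6 and dup (the fly Cdt1) load the MCM ring in G1, and geminin blocks dup once S phase has begun. Cyclins with their kinases then drive entry into S phase and mitosis. E2f1 with its partner Dp turns on S phase genes, and the RB proteins Rbf and Rbf2 hold E2F factors back. Early fly embryos divide in rapid cycles fed by maternal stores, and later embryonic cycles gain gap phases timed by zygotic stg, until dap ends division in most epidermal cells and fzr opens the endocycles.

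CG13894 summits were found at few replication factor promoters and at most cyclin, kinase, E2F and RB promoters. Of the 41 genes, 16 were bound (39.0%), against 22.8% of all coding genes. Replication factors were bound in 4 of 19 cases (21.1%), and cyclin, kinase, E2F and RB genes in 12 of 17 (70.6%). None of the 5 phosphatase, inhibitor and APC/C activator genes was bound. The replication factors thus stood near the share of all coding genes, and the cyclin, kinase and E2F or RB genes well above it.

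In each replicate's own 7434 strongest peaks, replication factors again had a lower share than the cyclin, kinase, E2F and RB genes. In replicates 1, 2 and 3 these lay at the promoters of 4, 5 and 4 replication factors, a mean of 22.8% ± 3.04 (SD, n = 3). They lay at 10, 9 and 10 of the cyclin, kinase, E2F and RB genes, a mean of 56.9% ± 3.40. For the whole set of 41 the counts were 15, 15 and 16, against 23.3% of all coding genes in replicate 1, 23.3% in replicate 2 and 25.0% in replicate 3. The share of replication factors minus that of cyclin, kinase, E2F and RB genes was -37.8, -26.6 and -37.8 percentage points, a mean of -34.1 ± 6.43 (SD, n = 3). That difference exceeded its spread between replicates, while replication factors minus all coding genes was -1.07 ± 3.62 points and did not. The spread is over 3 peak lists for the same genes. It measures how repeatable the calls were, and it does not test whether gene classes differ. The gap between the classes was wider in the thresholded list, at -49.5 points. When thresholded summits were required to lie inside the strongest peaks of 2 replicates, with 1 left out in turn, 3 to 4 replication factors and 8 cyclin, kinase, E2F and RB genes (47.1%) were bound, against 17.5% to 17.8% of all coding genes. The genes of a class are not replicates of each other, so no p-value was computed for these shares.

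**Figure D1:**
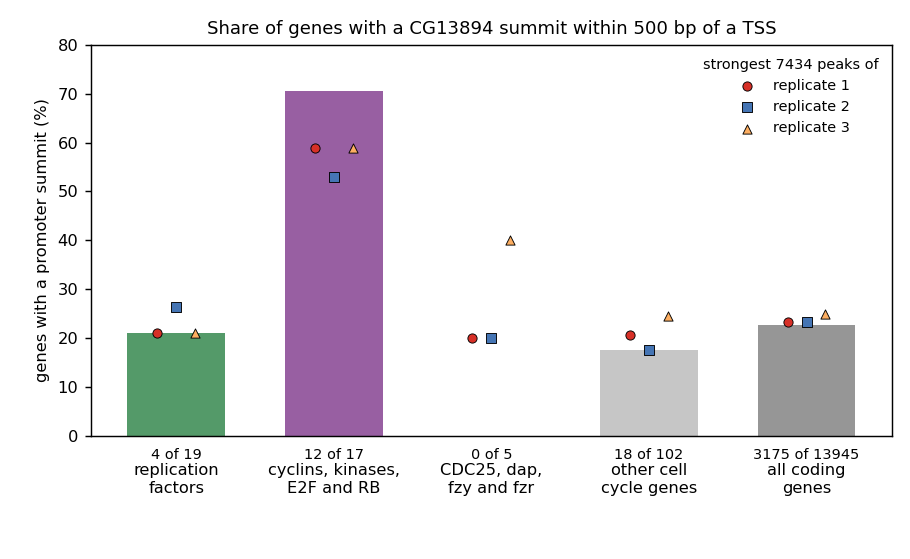
Share of genes with a CG13894 summit within 500 bp of a TSS. Bars give the thresholded list with the counts below, and symbols give the 7434 strongest peaks of each replicate. Cyclin, kinase, E2F and RB genes stand at 70.6% in the thresholded list and at 56.9% ± 3.40 over the replicates, against 22.8% of all coding genes in the thresholded list.

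Among the replication factors, each of the 4 role groups had exactly 1 bound gene. With replicate 2 or replicate 3 left out the MCM group had 0, since Mcm2 was lost. In the origin recognition complex it was Orc1, the large subunit with an ATPase fold (FBgn0286788, chr2R:7522437-7525716, minus strand of dm6). Its summit lay 63 bp upstream of the TSS, in intergenic DNA (offset -63 bp), at rank 3095 and 1.11 times the median score. The peak ranked 4539, 1653 and 5338 in replicates 1, 2 and 3, so all 3 placed it among their strongest 7434. Of the other subunits, Orc2, lat (the Orc3 subunit), Orc4 and Orc5 had no promoter summit of any rank in the pooled list or in any replicate. Orc6 was met once, at rank 27303 in replicate 2.

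In the MCM group, Mcm2 was bound. Mcm3, Mcm5 and Mcm7 had no promoter summit of any rank in the pooled list or any replicate. The same held for Mcm10, counted in this group though it is not a subunit of the MCM ring. The Mcm2 summit (offset -203 bp) ranked 4179 in the thresholded list, 3801 in replicate 2 and 5369 in replicate 3, and it was not listed in replicate 1. It also lay within 500 bp of the TSS of RPA1 (offset -316 bp), which encodes the large subunit of the single-strand binding protein of the fork. Mcm6 had weak peaks, at rank 14091 in the pooled list and at 22576, 9530 and 16846 in the replicates. The dpa gene, which encodes the Mcm4 subunit, was unbound in a different way. It had summits at rank 1899 in replicate 1 (offset -99 bp) and rank 1707 in replicate 2 (offset -94 bp), and no promoter summit in replicate 3 or in the pooled list. Of 3262 coding genes with a promoter summit among the strongest peaks of at least 2 replicates, 235 (7.20%) had none in the pooled list, and dpa was the sole gene of the 41 among them.

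Among the licensing genes, dup was bound and its loading partner Cdc6 and its inhibitor geminin were not. The dup gene had a pair of summits. The stronger, at rank 3400 (offset -341 bp), ranked 5911, 2104 and 4294 in the replicates, and it lay in an intron of SRPK, a kinase of splicing factors, nearer to that gene's TSS (offset -120 bp). The weaker, at rank 6496, lay in the dup UTR itself (offset -32 bp) and ranked 6258, 8595 and 7227. Geminin had a pooled summit at rank 13355, 25 bp downstream of a TSS, and the strongest promoter summits of the replicates ranked 15569, 19452 and 11470 (offsets 89, -11 and 25 bp).

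Nucleotide supply gave the strongest peak of the replication factors. RnrS, the small subunit of ribonucleotide reductase (chr2R:11983145-11985393, minus strand), had its summit at rank 1221 (offset -194 bp) with 1.79 times the median score, and ranks of 1466, 1803 and 843 in the replicates. That summit also lay within 500 bp of the TSS of CG34231 (offset -421 bp). The partner subunit gene RnrL had no promoter summit of any rank in any list. PCNA, the sliding clamp, had a weak pooled summit at rank 14290 (offset -100 bp), with 14963, 23166 and 13354 in the replicates. A thresholded summit of rank 2167 lay 1093 bp from the PCNA TSS, and it was 3 bp from the TSS of RpS18, a ribosomal protein gene.

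**Figure D2:**
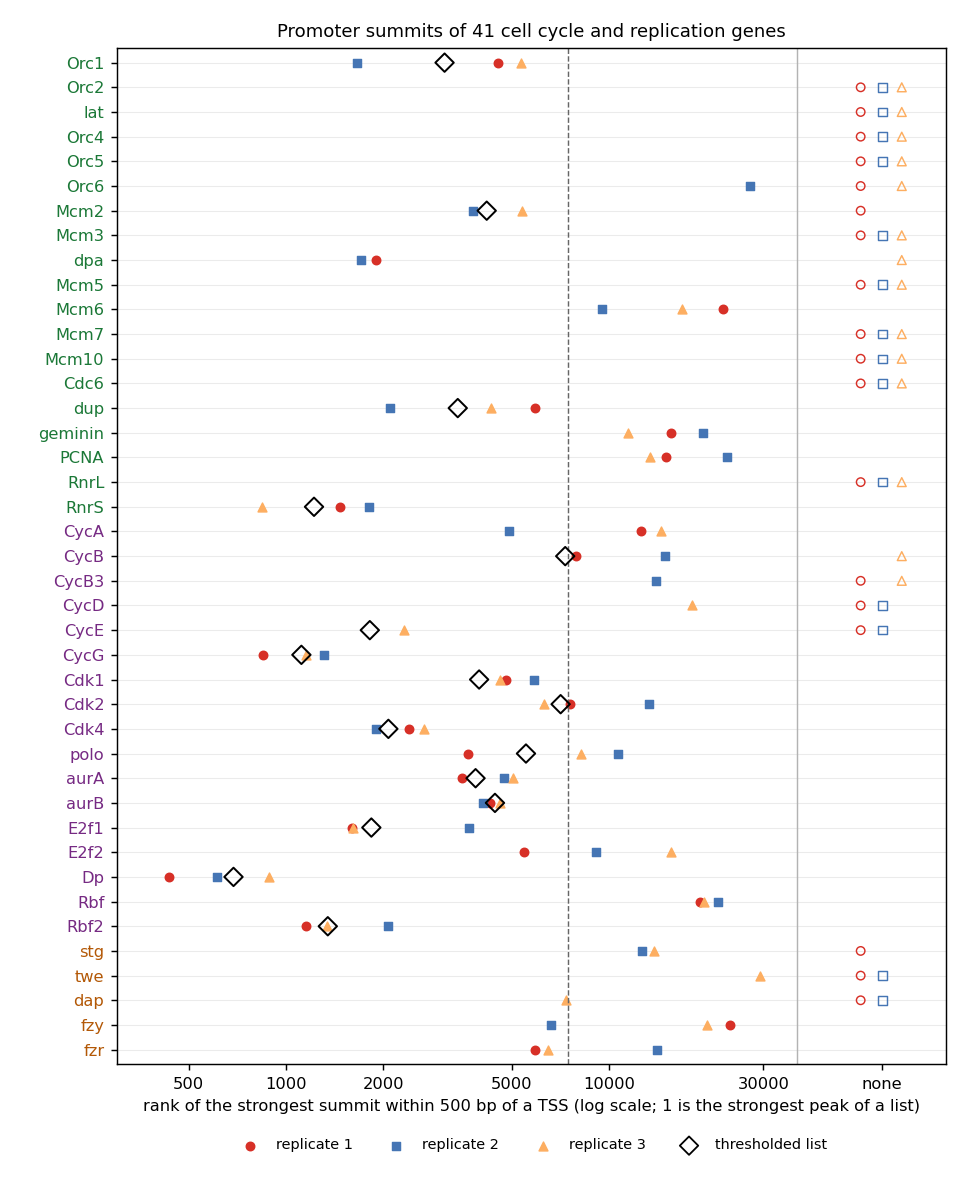
Rank of the strongest summit within 500 bp of a TSS for each of the 41 genes, on a log axis with stronger peaks to the left. Filled symbols are replicates, diamonds are the thresholded list, open symbols at the right mean no such summit in that replicate, and the dashed line marks rank 7434. Gene names are green for replication factors, purple for cyclins, kinases, E2F and RB genes, and orange for the other 5. The 10 genes with open symbols for all 3 replicates are all replication factors. At any rank a mean of 40.4% of replication factors had a promoter summit over the replicates, against 42.0% of all coding genes.

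All 6 kinase genes were bound, though not all with strong peaks. Their median rank was 4195.5, against 2817 over all 3175 bound coding genes. Cdk4, the partner of cyclin D (chr2R:16579470-16585448, plus strand), had the strongest, at rank 2074 (offset -196 bp, in its own UTR), with 2403, 1904 and 2677 in the replicates. The mitotic kinase gene Cdk1 (chr2L:10384739-10386262, minus strand) stood at rank 3959 (offset -180 bp), with 4787, 5836 and 4596 in the replicates. The aurora kinase genes were close together in rank. The centrosomal aurA stood at rank 3860 (offset -186 bp) with 3505, 4723 and 5026 in the replicates. The chromosomal passenger aurB stood at rank 4432 (offset -213 bp) with 4271, 4064 and 4588. All 3 replicates placed the peaks of Cdk4, Cdk1, aurA and aurB among their strongest 7434.

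The other kinases rested on weaker peaks. For polo, the mitotic polo-like kinase, the thresholded rank was 5528 (offset -80 bp) and the replicate ranks were 3646, 10644 and 8154. For Cdk2, the S phase partner of cyclin E, they were 7075 (offset -39 bp) and 7539, 13242 and 6293. Both were within the strongest 7434 peaks of 1 replicate. When peaks were required to lie inside the strongest peaks of 2 replicates, with any 1 of the 3 left out, the kinase count was 4 of 6 each time, without Cdk2 and polo.

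Cyclin genes were divided. CycG, a cyclin tied to growth control, was bound at rank 1116 (offset -22 bp) with 1.86 times the median score, and ranked 849, 1307 and 1157 in the replicates. The gene lies at chr3R:31596642-31612664 on the minus strand. CycE, which with Cdk2 starts S phase, was bound at rank 1817 with a summit far from its TSS (offset -456 bp), and it ranked 2313 in replicate 3. In replicates 1 and 2 the nearest summits lay 120 and 148 bp from the thresholded one, past the 500 bp limit, so CycE had no promoter summit there. CycB, a mitotic cyclin, was bound by the weakest peak of the set, at rank 7311 (offset -76 bp), with 7897 and 14873 in replicates 1 and 2 and none in replicate 3. With any 1 replicate left out the bound cyclins numbered 1 of 6, since CycB and CycE were lost each time.

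CycA, CycB3 and CycD were not bound. CycA had a pooled summit at rank 11102, 112 bp downstream of the TSS. Replicates 2 and 3 had it at ranks 4914 and 14504, and the strongest summit of replicate 1 was a different one, at rank 12547 and 427 bp downstream. CycB3 was met once, at rank 13953 in replicate 2, and CycD once, at rank 18060 in replicate 3.

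The 3 bound genes of the E2F and RB group had a median rank of 1347, against 2817 over all bound coding genes. Dp, the shared partner of both E2F proteins (chr2R:13222433-13228202, plus strand), had the strongest promoter peak of all 41 genes, at rank 688 (offset -205 bp) with 2.34 times the median score. A second Dp summit lay 416 bp downstream of a TSS, at rank 1871. The replicates differed in which of the pair was stronger. The upstream peak ranked 436, 612 and 1946 in replicates 1, 2 and 3, and the downstream one 3985, 2598 and 888. E2f1, the activator (chr3R:21620304-21660871, minus strand), was bound at rank 1837 (offset -154 bp), with 1598, 3680 and 1615 in the replicates. Rbf2 was bound at rank 1347 (offset -81 bp), with 1156, 2075 and 1343, and its summit lay nearer to the TSS of CG32856 on the other strand (offset -14 bp).

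E2f2 and Rbf were not bound. E2f2, the repressor E2F, had a pooled summit just outside the list of 7434, at rank 7590 (offset -31 bp), and ranked 5467, 9113 and 15511 in the replicates. Rbf, the RB protein that restrains E2f1, had a weak summit in the pooled list and each replicate, at rank 22870 in the pooled list (offset -115 bp). It ranked 21695 and 19585 in replicates 2 and 3, and replicate 1 had its strongest summit 120 bp downstream of the TSS, at rank 19088.

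The bases under the summits of 6 bound genes are printed to show the DNA at the centre of the peaks. Each run has 61 bases centred on the thresholded summit, on the gene's strand, read from the RefSeq Release 6 genome (dm6). The intervals are chr3R:31609807-31609867 for CycG (minus strand), chr3R:15965335-15965395 for Rbf2 (plus), chr2L:15747036-15747096 for CycE (minus), chr3R:21660995-21661055 for E2f1 (minus), chr3R:11962908-11962968 for aurA (plus) and chr2L:10386412-10386472 for Cdk1 (minus). No base is in capitals because none of these runs holds an ATCGAT or an E2F site as spelled out further on.
CycG: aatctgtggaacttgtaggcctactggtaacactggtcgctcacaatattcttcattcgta
Rbf2: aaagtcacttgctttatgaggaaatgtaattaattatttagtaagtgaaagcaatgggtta
CycE: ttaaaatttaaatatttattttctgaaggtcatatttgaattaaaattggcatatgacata
E2f1: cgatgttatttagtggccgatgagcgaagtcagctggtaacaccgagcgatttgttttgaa
aurA: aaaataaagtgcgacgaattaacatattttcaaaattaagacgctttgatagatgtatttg
Cdk1: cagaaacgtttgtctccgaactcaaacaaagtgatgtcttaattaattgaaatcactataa

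The CDC25 phosphatases, the Cdk inhibitor and the APC/C activators had no thresholded promoter summit. The mitotic phosphatase gene stg had a pooled summit at rank 14362 (offset -61 bp), and twe, its meiotic counterpart, was met once, at rank 29365 in replicate 3. The inhibitor gene dap was met once too, at rank 7363 in replicate 3, just inside that replicate's strongest 7434. The Cdc20 homologue fzy had a pooled summit at rank 16857 (offset -239 bp) and ranks of 23718, 6614 and 20012 in the replicates. The Cdh1 homologue fzr had one at rank 11922, 97 bp downstream of a TSS. The strongest fzr promoter summits of the replicates ranked 5877, 14050 and 6484 and lay at other places in replicates 1 and 2 (offsets -400 and 246 bp), and near the pooled one in replicate 3 (offset 72 bp). Counted in the strongest 7434 peaks of replicates 1, 2 and 3, this group had 1, 1 and 2 genes with a promoter summit.

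The genes of the 41 with no promoter summit in any list were replication factors, a class near the share of all coding genes at any rank. Over the replicates, 40.4% ± 6.08 (SD, n = 3) of replication factors had a promoter summit of any rank, against 42.0% ± 1.23 of all coding genes. How many of all coding genes lack a summit in every list was not counted. Of the 25 unbound genes, 9 had a promoter summit in the pooled list, which made 25 of 41 genes (61.0%) with a pooled summit of any rank, against 38.5% of all coding genes. By class these were 7 of 19 replication factors (36.8%), 15 of 17 cyclin, kinase, E2F and RB genes (88.2%) and 3 of the other 5. A total of 10 genes had no promoter summit in the pooled list or any replicate, namely Orc2, lat, Orc4, Orc5, Mcm3, Mcm5, Mcm7, Mcm10, Cdc6 and RnrL. From the TSSs of the 25 unbound genes to the nearest thresholded summit the median distance was 5619 bp, with 1093 bp for PCNA as the shortest and 48005 bp for Mcm5 as the longest. Some of these neighbours were strong peaks of other genes. The summit 5619 bp from Orc5 was at rank 63 of the list and lay 108 bp from the TSS of CenG1A. The summit 33105 bp from Cdc6 was at rank 367 and lay 42 bp from the TSS of the ribosomal protein gene RpL14.

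The bound genes had peaks of middling strength. Their median rank was 3247.5 (688 to 7311), against 2817 over all bound coding genes, and their median score was 1.08 times the list median, against 1.17. In the stronger 50% of the thresholded list lay 9 of the 16, against 1986 of the 3175 bound coding genes. Measured from the nearest TSS of the gene, the strongest promoter summits of all 16 were upstream, at a median offset of -183 bp (-456 to -22 bp). Those of CycE, CycG, Dp, Cdk4 and polo were upstream of an inner TSS and lay inside the gene, downstream of its outermost start, and the second summit of Dp was downstream of its nearest TSS. Over all 3175 bound coding genes the median offset was -95 bp, and 2466 (77.7%) were upstream by the same measure. Replicate summits mostly lay close to the thresholded ones of the 16 genes. The thresholded summits come from the same 3 replicates pooled, so this closeness is in part built in. The same distances were not computed over all bound coding genes. A replicate summit was found within 500 bp of the thresholded one in 46 cases over the 16 genes and 3 replicates and was missing in 2. The median distance was 16.5 bp, and 44 of the 46 were within 100 bp.

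**Figure D3:**
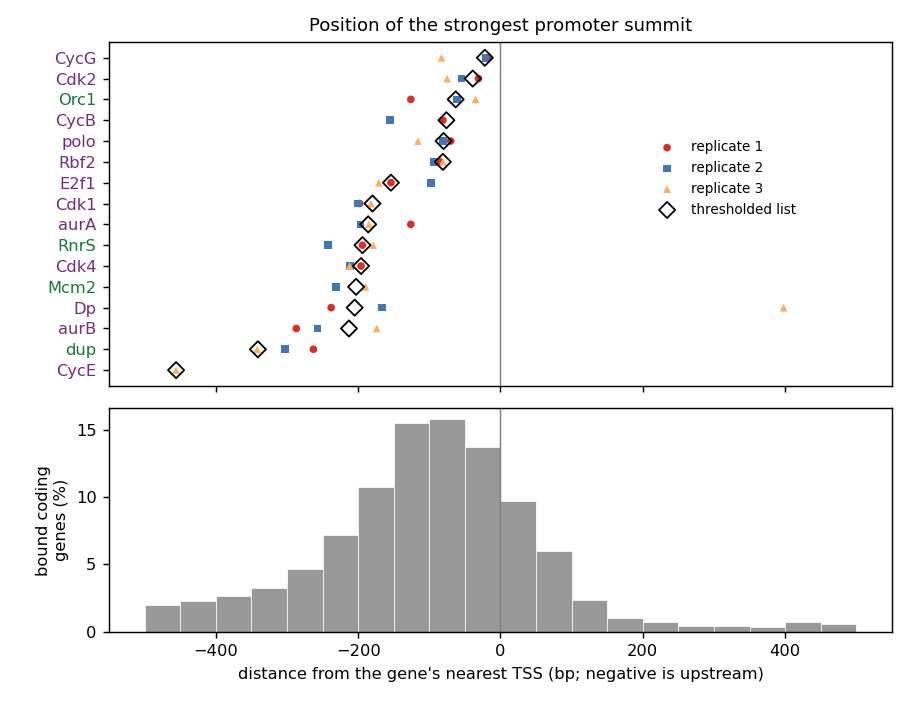
Position of the strongest promoter summit relative to the nearest TSS of the gene, in bp, with negative values upstream. The upper panel gives the 16 bound genes in the thresholded list (diamonds) and in each replicate, and the lower panel gives all 3175 bound coding genes in bins of 50 bp. All 16 diamonds lie upstream of the nearest TSS, and the replicate 3 point of Dp at the right is that gene's other summit.

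Several bound genes share their promoter with a gene on the opposite strand. A coding TSS on the opposite strand lay within 500 bp for 16 of the 41 genes (39.0%), against 27.8% of all coding genes. Of these 16, 7 were bound (43.8%), against 33.6% of all coding genes with such a neighbour. Of the 25 without one, 9 were bound (36.0%), against 18.6% of all coding genes without one. In the cyclin, kinase, E2F and RB class 6 of 7 with such a neighbour were bound and 6 of 10 without one, while in the replication factors the counts were 1 of 7 and 3 of 12. The first class thus had the higher share both among genes with such a neighbour and among genes without one. For CycG and Dp, which have such a neighbour, the strongest summit lay at an inner TSS instead. No TSS of another gene was within 500 bp of it, so those 2 summits were not at the shared promoter.

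At 3 kinase genes the summit lay between the paired starts. The Cdk1 summit lay upstream of Cdk1 (offset -180 bp) and of mRpS7 (offset -220 bp), a mitochondrial ribosomal protein gene. The aurB summit lay upstream of aurB (offset -213 bp) and of Stam (offset -229 bp), which encodes an endosomal sorting protein. The aurA summit was nearer to CG3281 (offset -133 bp) than to aurA. The Cdk2 summit was upstream of mir-995 as well, a microRNA gene on the same strand (offset -339 bp), and of a pair of unnamed noncoding transcripts there. If a summit counts only for the gene with the nearest TSS, 14 of the 41 genes were bound (34.1%), against 18.2% of all coding genes. The genes lost were aurA and Rbf2.

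A few genes carried further summits inside the transcribed region. With summits in the gene span added, 17 of the 41 genes had at least 1 thresholded summit (41.5%), against 27.4% of all coding genes, and the gene added was fzr, with an intronic summit at rank 4929, 6055 bp downstream of a TSS. By class these were 4 of 19 replication factors, 12 of 17 cyclin, kinase, E2F and RB genes and 1 of the other 5. With replicate 2 or replicate 3 left out the count was 11 each time. No span share of all coding genes is given for that setting, so this count has no background. Replication factors had no summit in the span beyond the promoter.

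CycG, of 16023 bp, had 5 further summits, all in its introns, at ranks 2130, 2933, 3401, 5925 and 6338. The strongest of these lay 9722 bp downstream of the nearest TSS and ranked 2738, 1260 and 4061 in the replicates. E2f1, of 40568 bp, had 4 further summits. The strongest lay in a UTR of E2f1, 6027 bp downstream of a TSS, at rank 1241 with 1.77 times the median score, against 1.44 times for its promoter summit. It ranked 1181, 1468 and 1438 in the replicates. The other 3, at ranks 3714, 5921 and 6885, were intronic. Cdk4 had 1, intronic, at rank 4443.

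**Figure D4:**
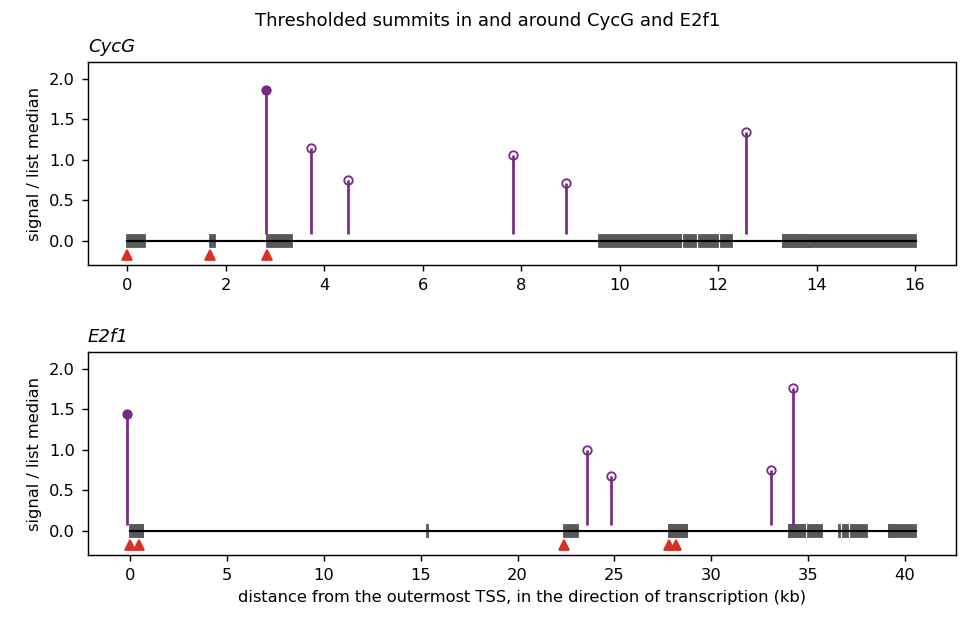
Thresholded summits in and around CycG and E2f1 by distance from the outermost TSS in kb. Height is the peak score divided by the median of the thresholded list, filled circles are promoter summits, open circles other summits, grey boxes exons and red triangles TSSs. In CycG the promoter summit is the highest at 1.86, and in E2f1 a summit in the gene span reaches 1.77, above the promoter summit at 1.44.

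Sequence matches separated the classes in another way. The promoter window ran from 250 bp before to 50 bp after the outermost start of each gene, and exact letters were searched on both strands. Inner TSSs were not searched, so for Cdk4, CycE, CycG and Dp, bound only at an inner TSS, the window is not at the bound promoter. An E2F site (TTTCCCGC, TTTGGCGC, TTTCGCGC or TTTGCCGC) was present in 11 of 19 replication factor windows (57.9%) and in 0 of 17 cyclin, kinase, E2F and RB windows, against 6.43% of all coding genes. A further gene of the 41, stg, also held one. The element DRE (TATCGATA), known in flies as the site of the factor DREF at replication genes such as PCNA, was present in 4 of 19 and 3 of 17 windows, against 9.36% of all coding genes. Its inner letters ATCGAT, which every DRE contains, were present in 12 of 41 windows (29.3%), against 23.3%.

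Genes with a match were found among the bound and among the unbound. Of the 12 genes with an E2F site, Orc1, Mcm2 and RnrS were bound, and lat, Orc4, Orc5, Orc6, Mcm3, Mcm5, Mcm6, RnrL and stg were not. Of the 7 genes with a DRE, Cdk2 and Rbf2 were bound, and Orc2, lat, Orc5, PCNA and CycA were not. Over all bound coding genes 7.46% of windows held an E2F site and 13.2% a DRE, against 6.43% and 9.36% of all coding genes. The E-box CACGTG was in 0 of 41 windows, against 4.20%, and the Motif 1 core GGTCACAC in 8 of 41 (19.5%), against 7.70%. TATAAA was in 13 of 19 replication factor windows (68.4%) and 5 of 17 cyclin, kinase, E2F and RB windows (29.4%), on either side of the 45.8% of all coding genes. Over the 41 genes TATAAA was in 22 windows (53.7%), and GAGAGA in 2 of 41 (4.88%), against 12.3%. A match is a string of letters and not a measured site.

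The same letters were counted within 100 bp of the 16 bound genes' summits, beside 3240 promoter summits in all. There an E2F site was in 1 of 16 windows (6.25%), against 5.49%, and TATAAA was in 9 of 16 (56.3%), against 27.7%. The ATCGAT letters were in 5 of 16 (31.3%), against 16.0%, and the whole DRE in 2 of 16 (12.5%), against 6.73%. With 16 windows, 1 window is 6.25%.

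**Figure D5:**
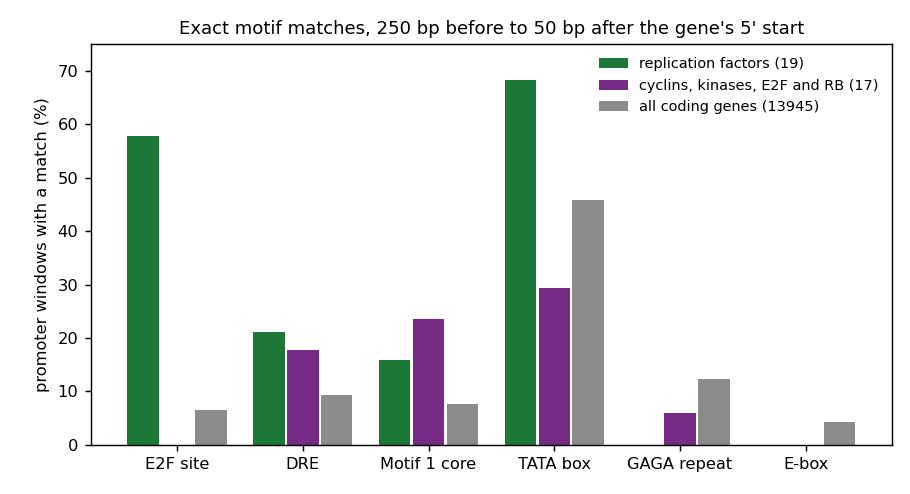
Share of promoter windows with an exact match on either strand, in percent, for 19 replication factors, 17 cyclin, kinase, E2F and RB genes and all 13945 coding genes. The E2F site is in 57.9% of replication factor windows, 0% of the cyclin, kinase, E2F and RB windows and 6.43% of all windows.

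Stretches around a match are printed for 6 of these windows, 3 from bound genes (Rbf2, Mcm2 and Cdk2) and 3 from unbound ones (CycA, Mcm6 and stg), so that bound and unbound promoters with the same letters can be compared. Capitals mark the match, a DRE in Rbf2, Cdk2 and CycA and an E2F site in Mcm2, Mcm6 and stg, where GCGCCAAA is TTTGGCGC read on the other strand. They lie on dm6 at chr3R:15965394-15965423 for Rbf2 (plus strand), chr3R:8264995-8265019 for Mcm2 (plus), chr3R:20735551-20735580 for Cdk2 (plus), chr3L:11833571-11833600 for CycA (minus), chrX:6674389-6674418 for Mcm6 (plus) and chr3R:29255795-29255824 for stg (minus), from the RefSeq genome. The DRE began 41 bp before the start of Rbf2, 61 bp before that of Cdk2 and 11 bp before that of CycA. For Rbf2 and Cdk2 it also lay within 100 bp of the summit. The E2F match of Mcm2 lay downstream of the start and outside the Mcm2 peak (chr3R:8264758-8264899), so that stretch is not DNA under the peak.
Rbf2: taagtatcagcTATCGATAagccagctaaa
Mcm2: ttagcaaacatTTTCCCGCgcattt
Cdk2: taaggaattctTATCGATAtgtggcgctgc
CycA: acgccacgaccTATCGATAgctggacagtg
Mcm6: gtcagaaaaagGCGCCAAAaccgagcaaag
stg: taaaagctcgcGCGCCAAAatcagtggcct

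Other cell cycle genes gave the context for the 41. Of 102 further cell cycle genes in 6 lists, 18 were bound (17.6%), against 22.8% of all coding genes, and over the replicates the share was 20.9% ± 3.44 (SD, n = 3). Their median rank was 2570.5, against 2817. The polymerase and fork list, which continues the replication factors, had 3 bound of 28 (10.7%), namely Ctf4 at rank 2062, RPA1 at rank 4179 and Cdc7 at rank 4604. Ctf4 couples the helicase to the polymerase, and Cdc7 is the kinase that fires origins. The RPA1 summit is the one it shares with Mcm2.

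The counts of the other 5 lists are to be read against the 22.8% of all coding genes. Other cyclins and Cdks had 2 bound of 11 (18.2%), Cdk12 at rank 984 and CycT at rank 3728, both known for roles in transcription elongation. Of 16 Cdk regulators and checkpoint genes 4 were bound (25.0%), the Chk1 kinase grp at rank 1505, trbl, which restrains stg, at rank 1581, the ATM kinase tefu at rank 1787 and mus304 at rank 4783. Of 19 APC/C and spindle checkpoint genes 6 were bound (31.6%), the strongest being the APC/C subunits Cdc16 at rank 754, lmgA at rank 3071 and Cdc27 at rank 4150, with the checkpoint gene mad2 at rank 4482. Of 22 mitosis genes 3 were bound (13.6%), the cohesin subunit SA1 at rank 660, the cytokinesis gene tum at rank 1122 and the condensin subunit SMC2 at rank 2070. Not every named peak held in all replicates. SA1 and tefu had no promoter summit in replicate 2, and lmgA ranked 17594 and 16750 in replicates 2 and 3. None of the 6 Myb-MuvB subunit genes, whose products join E2F and RB proteins in one complex, was bound, though 1, 0 and 1 had a summit among the strongest peaks of replicates 1, 2 and 3, and 3 in the pooled list.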

How the data were processed

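ChIP-seq of CG13894-GFP was done in 3 biological replicates of whole embryos, per the labels. Peaks were called on each replicate and on the pooled replicates, each with a control alignment, and a threshold on the irreproducible discovery rate gave the thresholded list, per the labels' file notes. Which aligner and peak caller were used, with which settings and threshold, is not given in the sources used here. Each deposited score is the authors' own and is on another scale in each list, so only ranks and ratios within a list were used. The deposited summit position fell past the peak end in 5 thresholded peaks and was set to the last base.

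Coordinates are dm6. TSSs came from Ensembl release 115, and 16193 of 16213 start codons (99.9%) read ATG on the RefSeq Release 6 genome. The gene lat was matched as Orc3. The share of bound genes was computed in the thresholded list and in each replicate's 7434 strongest peaks. Alternatives were other distances, 1 TSS per gene, the nearest TSS only, the stronger 50%, the pooled list and each replicate left out, that is thresholded summits inside the strongest peaks of both others. Named genes were all 41, genes sharing their summits and up to 4 per further list. The genes and lists were chosen with earlier results of these data known. The counting was tested on simulated peaks. Python 3.11.15 with NumPy 2.4.6 was used. Depth is unknown, and no p-value was computed.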

Additional observations from a re-analysis of the deposited data

How the results depend on the processing

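The bound count of the 41 genes was 16. It was 12 within 200 bp, 16 within 1000 bp, 12 with 1 TSS per gene and 14 for the nearest TSS only. In the same order all coding genes stood at 18.1%, 26.5%, 20.5% and 18.2%. The cyclin, kinase, E2F and RB genes fell to 9 of 17 (52.9%) within 200 bp and to 8 (47.1%) with 1 TSS per gene. The latter setting lost Cdk4, CycE, CycG and Dp, and left replication factors at 4. Within 200 bp replication factors numbered 3. The count of the 41 was 9 in the stronger 50% of the list and 25 in the pooled list. With 1 replicate left out it was 11 to 12. In the pooled list 7 replication factors had a summit, and in the stronger 50% the cyclin, kinase, E2F and RB genes numbered 6. With 1 replicate left out these classes had 3 to 4 and 8 genes, and all coding genes 2443 to 2476. The 5 phosphatase, inhibitor and APC/C activator genes had 0 in the thresholded list, 1, 1 and 2 in replicates 1, 2 and 3, and 3 in the pooled list. All coding genes had 3253, 3253 and 3485 in replicates 1, 2 and 3, 1986 in the stronger 50% and 5373 in the pooled list. The 102 further genes had 10, 37 and, for the nearest TSS only, 11, and 13 to 16 with 1 replicate left out. With gene spans the 41 genes had 9 in the stronger 50% and 11 to 12 with 1 replicate left out. No span share of all coding genes is given for these settings. At the summits the E2F and Motif 1 shares were 6.25% each. The rank of dup was 6496 within 200 bp. Shorter lists hold fewer peaks by construction; other causes were not tested. No paired analysis was possible because there is 1 group. Each replicate and the pooled list end at 30000 peaks, so a gene without a summit there may hold a weaker one.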
